A study of Mus musculus with 6 samples.

Results

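Prostaglandins are short-lived lipid signals made from arachidonic acid, and 10 genes of their synthesis, reception and breakdown were followed in C2C12 cells, a mouse myoblast line, after knockdown of CNN3 (calponin 3, an actin-binding protein). The 10 genes are Pla2g4a, Ptgs1, Ptgs2, Ptges, Ptges2, Ptges3, Ptgis, Ptger4, Ptgfr and Ptgr1. They were fixed by name. Ensembl transcript identifiers were matched to mouse gene symbols without their version, and the values of the transcripts of each gene were summed. All 10 genes were found, with 12 transcripts in all, among 11835 genes. mRNA was sequenced from 3 libraries of cells transfected with NC siRNA, a control siRNA (siNC), and from 3 libraries of cells transfected with CNN3 siRNA (siCNN3). All 6 libraries therefore carry a transfected siRNA, and all cells were grown in 10% fetal bovine serum and then differentiated in 2% horse serum. Mouse myotube is the labelled cell type, while the study describes differentiating myoblasts. The study gives a harvest time for its differentiation cultures in general, but for the sequenced libraries neither the time nor the CNN3 siRNA is named in the sources used here. The labels number the libraries but do not say that they came from separate cultures, so the p-values measure the spread between these libraries, which may be technical.

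Values are FPKM (mapped fragments scaled to transcript length and to library total), so levels can be compared between genes per length. Read numbers are not given and the depth is unknown. In siNC replicates 1, 2 and 3 the targeted gene, Cnn3, measured 62.8, 61.4 and 62.8 FPKM. In siCNN3 replicates 1, 2 and 3 it measured 19.0, 39.2 and 25.6 FPKM, below all siNC libraries. siCNN3 replicates 1 and 2 were closer to each other than any other pair, with a robust SD of their log2 differences over genes of 0.144, compared with 0.249 to 0.458 for the other pairs within a group. siNC replicate 1 and siCNN3 replicate 3, of different groups, had 0.277. Where leaving out these libraries altered a call among the genes and lists below, the altered value or count of calls is given.

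Cytosolic phospholipase A2 frees arachidonic acid from membranes, the cyclooxygenases convert it to prostaglandin H2, and terminal synthases turn that into prostaglandin E2, prostacyclin and the other prostanoids. These act on G protein-coupled receptors of the same or neighbouring cells and are then oxidized and reduced to inactive products. In skeletal muscle, the inducible cyclooxygenase and prostaglandins E2 and F2α are known for roles in myoblast proliferation, fusion and regeneration. Ptgs2 is also known as an immediate early gene, induced by cytokines, serum and cAMP through C/EBP, CRE and NF-κB sites in its promoter.

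The cyclooxygenase promoters are shown because the pair of genes encodes enzymes of the same reaction, of which Ptgs2 is the inducible form. Sequences are those of RefSeq on GRCm38.p6, and 9 of the 10 genes had a window of 250 bases before to 50 bases after a start site, of which Pla2g4a had 2. The first sequence is the 250 bases upstream of Ptgs2 (chr1:150099781-150100030, plus strand), with the C/EBP palindrome TTGCGCAA in capitals, and the second is the 250 bases upstream of Ptgs1 (chr2:36230176-36230425, plus strand), in which none of the motifs searched was found. The third lies just after the Ptgs2 start (chr1:150100036-150100060, plus strand), with the overlapping short CRE site TGACG, read on the minus strand, and E-box in capitals.
Ptgs2 upstream: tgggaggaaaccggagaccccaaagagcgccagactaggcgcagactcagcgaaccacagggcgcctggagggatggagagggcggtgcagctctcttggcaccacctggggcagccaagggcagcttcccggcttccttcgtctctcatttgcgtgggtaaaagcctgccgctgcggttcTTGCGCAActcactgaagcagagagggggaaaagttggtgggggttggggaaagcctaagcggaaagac
Ptgs1 upstream: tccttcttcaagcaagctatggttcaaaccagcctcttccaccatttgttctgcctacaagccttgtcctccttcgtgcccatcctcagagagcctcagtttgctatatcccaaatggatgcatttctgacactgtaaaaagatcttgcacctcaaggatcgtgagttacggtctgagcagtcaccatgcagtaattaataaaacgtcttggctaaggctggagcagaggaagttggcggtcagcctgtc
Ptgs2 after the start: caccactaCGTCACGTGgagtccgc

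Motifs were searched on both strands of the whole windows, and positions are counted from the annotated start of each window. TTGCGCAA was found in 0.183% of 32851 promoter windows and, of the 10 windows of these genes, in that of Ptgs2, 69 bases before the start. The short CRE site TGACG was found in 20.8% of all windows, and in those of Ptgs2, 14 bases after the start, and Ptges3, 12 bases after it. The E-box CACGTG was found in 7.15% of all windows, and in those of Ptgs2, 17 bases after the start, and Ptges2, 77 bases before it. TATAAA was found in 13.6% of all windows and in 1 of the windows of Pla2g4a. TGACNNNGC, the core of the antioxidant response element, was found in 12.4% of all windows and in that of Ptges3, where it overlaps the short CRE site. TTCNNNGAA and GAAANNGAAA, the GAS and the core of the ISRE, were found in 8.3% and 3.44% of all windows and in none of those of these genes. A match describes these letters and is not a site of binding.

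None of the 10 genes passed the test between siCNN3 and siNC (limma, Benjamini-Hochberg adjusted p below 0.05). Across the 11593 genes tested, 1.73% passed in the direction of siCNN3 and 0.336% in that of siNC. The 10 genes all passed the filter on low values. At an unadjusted limma p below 0.05, 2 were higher in siCNN3 (Pla2g4a and Ptgs2), compared with 9.94% of all genes, and 1 was lower (Ptgr1), compared with 6.14%. In 3 genes every siCNN3 library lay above every siNC library (Pla2g4a, Ptgs2 and Ptges3), compared with 13.8% of all genes. In another 3 every siCNN3 library lay below (Ptges, Ptgis and Ptgr1), compared with 9.35%. The median log2 fold change was -0.17 over the 10 genes and 0.03 over all genes tested. An exact permutation test of 3 against 3 libraries cannot give a p below 0.1, the value it gave for each of these 6 genes. The counts of the 10 genes were not tested against the shares of all genes.

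**Figure D1:**
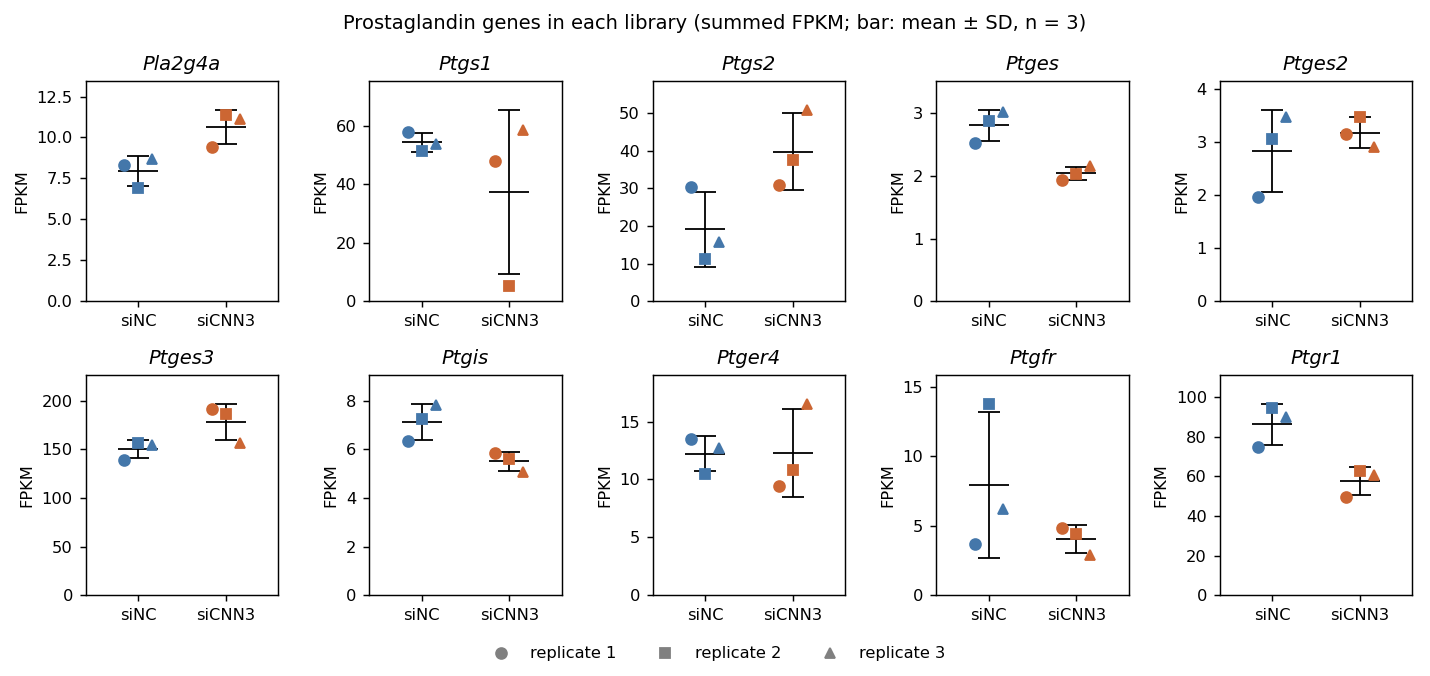
Summed FPKM (vertical axis, from 0) of each of the 10 genes in the siNC and siCNN3 libraries, with 1 point per library, symbols by replicate number, and bars for the mean ± SD (n = 3). The siCNN3 points of Ptgs2 lie at 31.0 to 50.9 FPKM above siNC points of 11.2 to 30.4 FPKM, and 1 siCNN3 library of Ptgs1 lies at 5.38 FPKM.

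By mean FPKM over the 6 libraries the order of levels was Ptges3 (164.3), Ptgr1 (72.0), Ptgs1 (45.8), Ptgs2 (29.5), Ptger4 (12.2), Pla2g4a (9.30), Ptgis (6.33), Ptgfr (5.97), Ptges2 (3.00) and Ptges (2.42). Ptges3 lay at percentile 97.4 of the tested genes, and Ptges at percentile 15.3. The order differed between the groups: in siCNN3 the mean of Ptgs2 (39.8 FPKM) was above that of Ptgs1 (37.3 FPKM), which rests on Ptgs1 in siCNN3 replicate 2 (5.38 FPKM), since Ptgs1 was the higher in replicates 1 and 3. In siNC the mean of Ptgfr (7.90 FPKM) was above that of Ptgis (7.14 FPKM). Of neighbours in the order of siNC means, the libraries of Ptgs2 and Ptger4, of Pla2g4a and Ptgfr, of Ptgfr and Ptgis, and of Ptges2 and Ptges overlapped. In siCNN3, those of Ptgr1 and Ptgs2, of Ptgs2 and Ptgs1, of Ptgs1 and Ptger4, of Ptger4 and Pla2g4a, and of Ptgfr and Ptges2 overlapped, so these neighbours were not separated by their spread.

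Pla2g4a encodes cytosolic phospholipase A2, the calcium-dependent enzyme that frees arachidonic acid. It lies on the minus strand of chromosome 1 (GRCm38, 149829618 to 149961290, 1 transcript of 2856 nucleotides and 18 exons). It measured 8.32, 6.90 and 8.66 FPKM in siNC and 9.42, 11.3 and 11.1 FPKM in siCNN3. All siCNN3 libraries were thus above all siNC libraries, with means of 7.96 ± 0.933 and 10.6 ± 1.06 (SD, n = 3 each). The log2 fold change was 0.38 (SE 0.148, 95% interval 0.03 to 0.73, limma adjusted p = 0.276). Pla2g4a is the neighbour of Ptgs2 on chromosome 1, with 138.7 kb between the genes, on opposite strands and with the starts on their facing ends.

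Ptgs2 encodes the inducible cyclooxygenase, COX-2. The gene is on the plus strand of chromosome 1 (150100031 to 150108227, 1 transcript of 4453 nucleotides and 10 exons), just downstream of the promoter printed above. In siNC replicates 1, 2 and 3 it measured 30.4, 11.2 and 15.8 FPKM. In siCNN3 replicates 1, 2 and 3 it measured 31.0, 37.5 and 50.9 FPKM. The groups did not overlap, but siNC replicate 1 was as high as the lowest siCNN3 library to within 1 FPKM, and siCNN3 replicate 3 was the highest of all. The means were 19.1 ± 10.1 and 39.8 ± 10.2 FPKM (SD, n = 3 each), a ratio of 2.08. The log2 fold change of 1.11 (SE 0.358, 95% interval 0.26 to 1.95) had an unadjusted p of 0.0178 and an adjusted p of 0.194 (limma). Without both siNC replicate 1 and siCNN3 replicate 3 it was 1.30 with an adjusted p of 0.0416, which passes the threshold, in an analysis added after the data were seen. Leaving out 1 library at a time gave log2 fold changes of 0.80 to 1.48 and no call, and over all 17 alternatives the adjusted p ran from 0.0416 to 0.447. With siCNN3 replicates 1 and 2 averaged as 1 sample the log2 fold change was 1.20 (limma adjusted p = 0.379). After median-of-ratios scaling or quantile normalization the groups overlapped.

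Ptgs1 encodes the constitutive cyclooxygenase, COX-1. It lies on the plus strand of chromosome 2 (36230426 to 36252272, 1 transcript of 2867 nucleotides and 11 exons). It measured 57.8, 51.3 and 53.8 FPKM in siNC and 48.0, 5.38 and 58.5 FPKM in siCNN3. siCNN3 replicate 2 was thus far below the other 5 libraries, which lay close together, and without read counts it cannot be told whether 5.38 FPKM is a low level or a failed estimate. The means were 54.3 ± 3.29 and 37.3 ± 28.1 FPKM (SD, n = 3 each), and the log2 fold change of -1.06 (SE 0.791, 95% interval -2.94 to 0.82) had an adjusted p of 0.561 (limma). Without siCNN3 replicate 2 the log2 fold change was -0.03 and the adjusted p 0.967, so the difference between the means rests on that library. Of 2500 genes at 20 FPKM or more in all other libraries, Ptgs1 was the 1 gene that siCNN3 replicate 2 listed at a level more than 5 times below every other library, and the other libraries each had 0 or 1 such gene. Its one transcript in the data leaves no other isoform to which the value could be compared.

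The ratio of Ptgs2 to Ptgs1 was 0.527, 0.218 and 0.293 in siNC and 0.645, 6.97 and 0.871 in siCNN3. It was above the siNC libraries in every siCNN3 library, and the value of 6.97 is that of siCNN3 replicate 2, where Ptgs1 was low. Ptgs2 made up 17.9% to 34.5% of the summed cyclooxygenase FPKM in siNC and 39.2%, 87.5% and 46.5% in siCNN3, so the doubt about Ptgs1 in siCNN3 replicate 2 holds for the ratio of 6.97 and the share of 87.5% too. The sum itself overlapped, at 62.4 to 88.2 FPKM in siNC and 42.9 to 109.4 FPKM in siCNN3.

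Ptges3 encodes the cytosolic prostaglandin E synthase, which is also p23, a co-chaperone of Hsp90. Its locus is the plus strand of chromosome 10 (128058954 to 128077272). It measured 139.3, 156.6 and 154.7 FPKM in siNC and 191.4, 186.7 and 156.9 FPKM in siCNN3. siCNN3 replicate 3 lay level with the upper siNC libraries, and the other siCNN3 libraries were higher. The means were 150.2 ± 9.47 and 178.3 ± 18.7 FPKM (SD, n = 3 each), and the log2 fold change was 0.24 (SE 0.115, 95% interval -0.03 to 0.52, limma adjusted p = 0.360). After quantile normalization Ptges3 had a log2 fold change of 0.09 (limma adjusted p = 0.660) and its groups overlapped. Of its transcripts, the transcript of 2000 nucleotides and 8 exons held 127.9 to 139.5 FPKM in siNC and 143.6 to 169.1 FPKM in siCNN3. The transcript of 1559 nucleotides and 7 exons held 11.4 to 20.8 and 13.3 to 23.3 FPKM, with overlapping groups. Reads of the processed pseudogene Ptges3-ps, for which no transcript was analysed here, could be counted with this gene, so its level is uncertain.

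Ptges encodes the microsomal, inducible prostaglandin E synthase, which is usually paired with COX-2. It lies on the minus strand of chromosome 2 (30889471 to 30929863). It measured 2.53, 2.87 and 3.01 FPKM in siNC and 1.94, 2.03 and 2.15 FPKM in siCNN3, all below siNC. The means were 2.80 ± 0.250 and 2.04 ± 0.108 FPKM (SD, n = 3 each), with a log2 fold change of -0.32 (SE 0.142, 95% interval -0.66 to 0.02, limma adjusted p = 0.329). Ptgs2 and Ptges thus lay on opposite sides of siNC in all siCNN3 libraries, neither past the threshold. For Ptgs2 this separation was lost after median-of-ratios scaling or quantile normalization. Ptges2, the membrane-associated synthase on the plus strand of chromosome 2 (32395896 to 32405772), measured 1.97, 3.05 and 3.47 FPKM in siNC and 3.14, 3.47 and 2.90 FPKM in siCNN3. Its groups overlapped, and the log2 fold change was 0.14 (95% interval -0.32 to 0.60, limma adjusted p = 0.760). Per length, Ptges3 made up 96.0% to 96.9% of the FPKM of these synthases in siNC and 96.9% to 97.4% in siCNN3.

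Ptgis encodes prostacyclin synthase, a cytochrome P450 of the endoplasmic reticulum. The gene is on the minus strand of chromosome 2 (167191805 to 167240604). It measured 6.35, 7.24 and 7.83 FPKM in siNC and 5.86, 5.59 and 5.07 FPKM in siCNN3, again all below siNC. The means were 7.14 ± 0.746 and 5.51 ± 0.401 FPKM (SD, n = 3 each), with a log2 fold change of -0.32 (SE 0.142, 95% interval -0.66 to 0.02, limma adjusted p = 0.330).

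Of the receptors, Ptger4 encodes EP4, the receptor for prostaglandin E2 that raises cAMP. It lies on the minus strand of chromosome 15 (5206661 to 5244187). It measured 13.5, 10.5 and 12.7 FPKM in siNC and 9.42, 10.8 and 16.6 FPKM in siCNN3, so the siCNN3 libraries lay on both sides of siNC. The log2 fold change was -0.03 (SE 0.220, 95% interval -0.55 to 0.49, limma adjusted p = 0.966). Its transcript of 3312 nucleotides carried this spread, with 8.96 to 11.4 FPKM in siNC and 7.11, 7.98 and 14.2 FPKM in siCNN3, while that of 3264 nucleotides measured 1.54 to 2.17 and 2.31 to 2.82 FPKM. Neither passed the test (limma adjusted p = 0.906 and 0.708 over 21658 transcripts).

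Ptgfr encodes FP, the receptor for prostaglandin F2α, which acts through Gq and calcium. Its locus is the minus strand of chromosome 3 (151796502 to 151837630). It measured 3.71, 13.8 and 6.19 FPKM in siNC and 4.82, 4.37 and 2.91 FPKM in siCNN3. siNC replicate 2 was more than 2 times any other library, and the remaining libraries overlapped. The means were 7.90 ± 5.26 and 4.03 ± 0.997 FPKM (SD, n = 3 each), with a log2 fold change of -0.68 (SE 0.410, 95% interval -1.65 to 0.29, limma adjusted p = 0.467) that went to -0.23 (adjusted p = 0.713) without siNC replicate 2.

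Ptgr1 encodes prostaglandin reductase 1, which reduces 15-keto prostaglandins to inactive products and also inactivates leukotriene B4. The locus is on the minus strand of chromosome 4 (58965439 to 58987119). It measured 74.8, 94.5 and 90.2 FPKM in siNC and 49.4, 62.8 and 60.5 FPKM in siCNN3. All siCNN3 libraries were below all siNC libraries, a gap of more than 10 FPKM. The means were 86.5 ± 10.4 and 57.6 ± 7.15 FPKM (SD, n = 3 each), so siCNN3 stood at 66.5% of siNC. The log2 fold change of -0.58 (SE 0.144, 95% interval -0.92 to -0.24) had the smallest p of the 10 genes, unadjusted 0.00513 and adjusted 0.106 (limma). After quantile normalization it was -0.69 with an adjusted p of 0.0465, which passes the threshold, and over all 17 alternatives the adjusted p ran from 0.0465 to 0.337.

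**Figure D2:**
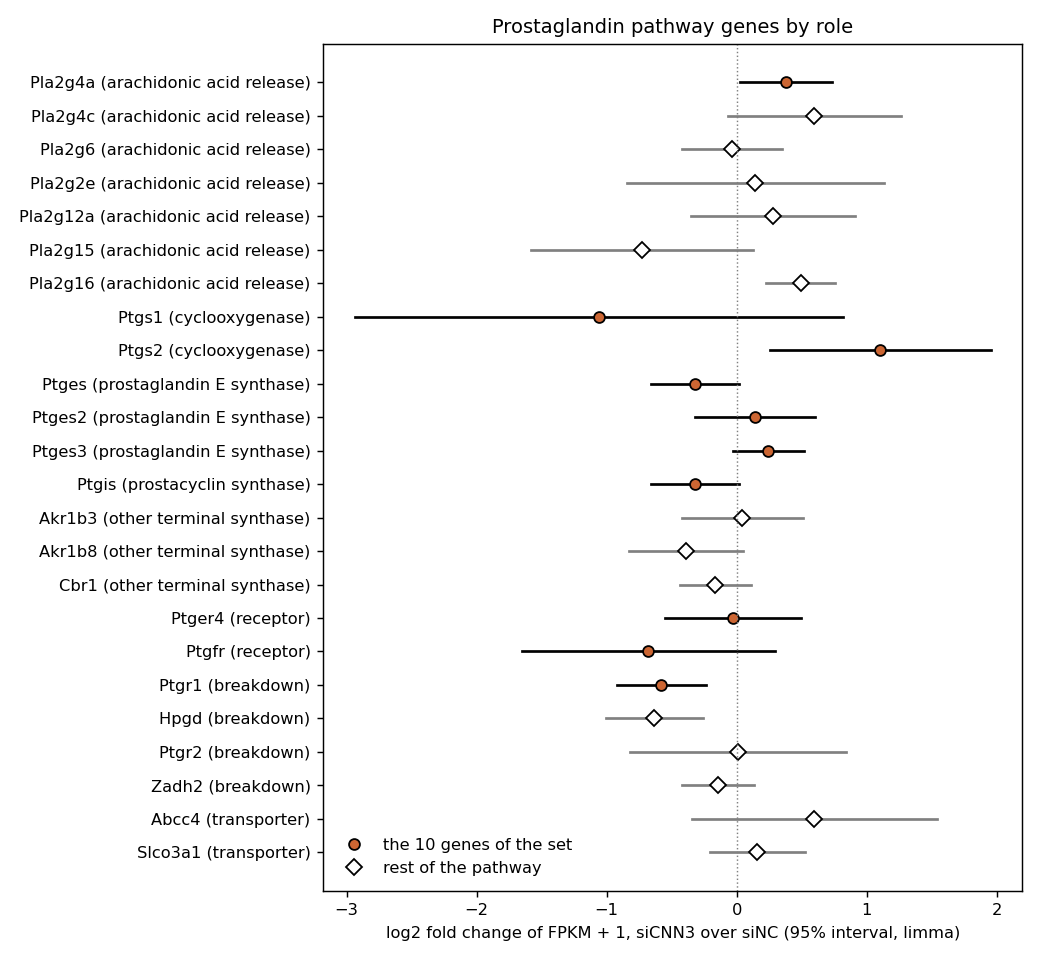
Log2 fold change of FPKM + 1, siCNN3 over siNC, with its 95% interval from limma (horizontal axis), for the 10 genes (filled circles) and the 14 other tested genes of the pathway (open diamonds), ordered by role. The intervals of Pla2g4a, Ptgs2 and Pla2g16 lie above 0 and those of Ptgr1 and Hpgd below it, and none of these genes passed after adjustment.

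The rest of the pathway was followed on a list of 37 other phospholipases A2, terminal synthases, receptors, breakdown enzymes and transporters, of which 15 had a transcript and 14 were tested. The other 22 were not analysed here, among them Ptgds, Hpgds, Tbxas1, Ptger1, Ptger2, Ptger3, Ptgir and Tbxa2r. None of the 14 passed in either direction (limma), and at an unadjusted p below 0.05 there was 1 in each direction, near the shares of all genes (9.94% higher and 6.14% lower). Their median log2 fold change was 0.03, and that of all genes tested was also 0.03. Hpgd encodes the dehydrogenase that performs the step of inactivation before Ptgr1. It measured 6.06, 7.91 and 5.95 FPKM in siNC and 3.75, 4.26 and 3.71 FPKM in siCNN3, all lower (log2 fold change -0.63, SE 0.158, limma adjusted p = 0.108). Pla2g16 encodes a phospholipase A of membranes and lipid stores. It measured 25.2, 27.2 and 26.7 FPKM in siNC and 39.1, 39.0 and 34.5 FPKM in siCNN3, all higher (log2 fold change 0.49, SE 0.111, limma adjusted p = 0.0857). Without siCNN3 replicate 3 its adjusted p was 0.0463, and that of Pla2g15, a lysosomal phospholipase named here after its values were seen, was 0.0269. Pla2g15 measured 13.0, 9.37 and 9.86 FPKM in siNC and 4.43, 4.05 and 11.7 FPKM in siCNN3, so siCNN3 replicate 3 lay within the siNC range and the other siCNN3 libraries below it, and with all libraries its log2 fold change was -0.73 (adjusted p = 0.378). Cbr1, a carbonyl reductase that can convert prostaglandin E2 to F2α, measured 13.1 ± 0.0864 and 11.6 ± 0.391 FPKM (SD, n = 3 each), also without overlap (log2 fold change -0.16, limma adjusted p = 0.534). Zadh2, prostaglandin reductase 3, named after its values were seen, measured 15.3 to 16.6 and 13.6 to 15.0 FPKM (log2 fold change -0.14, adjusted p = 0.590). Ptgr2, another prostaglandin reductase, also named after its values were seen, overlapped, at 4.72 to 8.77 and 4.06 to 9.52 FPKM.

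Leukotrienes are made from the same arachidonic acid. Of 18 genes of that branch and the lipoxygenases, 8 were tested and none passed (limma), while 3 were lower at an unadjusted p below 0.05 and 0 higher, compared with 6.14% and 9.94% of all genes. All 8 log2 fold changes were negative, with a median of -0.40, compared with 5335 negative of all 11593 genes and a median of 0.03. Dpep2, a dipeptidase that converts leukotriene D4 to E4, measured 4.40 to 5.92 FPKM in siNC and 3.23 to 3.62 FPKM in siCNN3 (log2 fold change -0.47, adjusted p = 0.196). Its relative Dpep1 measured 0.716 to 1.20 and 0.335 to 0.531 FPKM (-0.48, adjusted p = 0.231), and Ltc4s, leukotriene C4 synthase, 1.18 to 2.25 and 1.04 to 1.17 FPKM (-0.36, adjusted p = 0.405).

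Prostaglandin E2 receptors signal through G proteins, adenylate cyclases and protein kinase A. Of 18 genes of this list 15 were tested and none passed (limma), with 4 lower and 0 higher at an unadjusted p below 0.05, where all genes gave 6.14% and 9.94%. Their median log2 fold change was -0.29, with 13 negative, beside 5335 negative of 11593 over all genes. After quantile normalization 1 gene of this list was called lower, as was 1 without both siNC replicate 1 and siCNN3 replicate 3. Over all genes, 93 and 299 were called lower under these settings, compared with 39 in the main fit. Neither list was tested against all genes. Adcy6 encodes an adenylate cyclase and measured 6.15 to 12.5 FPKM in siNC and 3.77 to 4.53 FPKM in siCNN3 (log2 fold change -0.83, adjusted p = 0.187). Adcy9, another, measured 2.49 to 2.62 and 1.59 to 1.95 FPKM (-0.36, adjusted p = 0.286). Gnai2, the inhibitory G protein subunit of EP3 and other receptors, measured 147.6 to 173.4 and 103.5 to 144.7 FPKM (-0.40, adjusted p = 0.244).

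Ptgs2 belongs to the genes that cAMP and its factor CREB induce, and 15 of 16 other genes of that kind were tested. None passed (limma), and 2 were higher at an unadjusted p below 0.05, a share near the 9.94% of all genes. By library, their mean log2 level relative to the siNC mean was 0.26, -0.17 and -0.09 in siNC and -0.06, -0.16 and 0.65 in siCNN3. siNC replicate 1 and siCNN3 replicate 3 were thus the high libraries of their groups, as they were for Ptgs2. Nr4a1, an orphan nuclear receptor and immediate early gene, measured 25.3, 10.3 and 8.65 FPKM in siNC and 5.40, 6.29 and 26.8 FPKM in siCNN3. Per1, a clock gene induced by cAMP, measured 17.6, 5.71 and 7.08 FPKM and 5.56, 6.45 and 18.7 FPKM. Both were chosen after their values were seen. In siCNN3 replicates 1 and 2, Ptgs2 lay above all siNC libraries while Nr4a1 lay below all of them. Fosb, a partner of Jun, measured 0.957 to 1.69 FPKM in siNC and 1.81 to 4.06 FPKM in siCNN3 (log2 fold change 0.71, adjusted p = 0.231), and Ppargc1a, a coactivator of mitochondrial genes, 0.497 to 0.652 and 0.709 to 1.00 FPKM (0.27, adjusted p = 0.451). Pde4d, a cAMP phosphodiesterase, measured 5.28 to 9.53 and 3.89 to 5.21 FPKM (-0.46, adjusted p = 0.378). The part of this difference between libraries in the values of Ptgs2 was not tested.

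**Figure D3:**
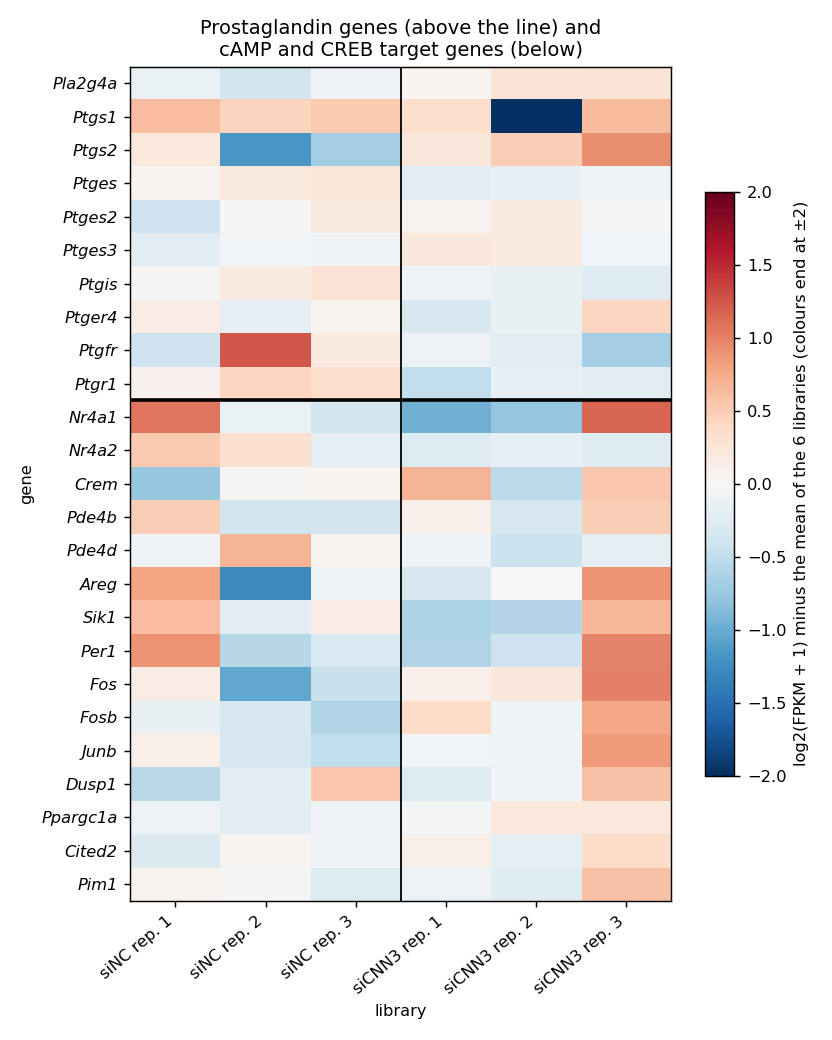
Level of each of the 10 genes (above the line) and of the 15 tested genes induced by cAMP and CREB (below) in each library, as log2(FPKM + 1) minus the mean of the 6 libraries (colour scale ending at ±2). siNC replicate 1 and siCNN3 replicate 3 are red for Nr4a1 (25.3 and 26.8 FPKM) and Per1 (17.6 and 18.7 FPKM), and siCNN3 replicate 2 is dark blue for Ptgs1.

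Among inflammatory genes and targets of NF-κB, which share inducers with Ptgs2, 13 of 18 were tested, and 1 passed, higher in siCNN3, compared with 1.73% of all genes. Their median log2 fold change was 0.05, with 7 positive and 6 negative, beside a median of 0.03 over all genes tested. Without siCNN3 replicate 3 there were 3 called higher, and without both siNC replicate 1 and siCNN3 replicate 3 there were 2. Over all genes, 443 and 576 were called higher under these settings, compared with 200 with all libraries. Il6, a cytokine of the inflamed and exercised muscle, rose from 13.2, 7.59 and 5.66 FPKM in siNC to 30.6, 30.7 and 26.7 FPKM in siCNN3 (log2 fold change 1.70, SE 0.271, limma adjusted p = 0.0333). Its call was lost under 9 of 17 alternatives, with adjusted p-values up to 0.169, among them median-of-ratios scaling and leaving out siNC replicate 2 or 3 or siCNN3 replicate 1 or 2. Over all 17 its log2 fold change ran from 1.46 to 2.07. Ccl2, a chemokine for monocytes, measured 125.4 to 235.5 FPKM in siNC and 286.7 to 502.9 FPKM in siCNN3 (log2 fold change 1.35, adjusted p = 0.0852). Csf1, the growth factor of macrophages, measured 89.0 to 105.0 and 120.6 to 152.5 FPKM (0.49, adjusted p = 0.127). Sod2, the mitochondrial superoxide dismutase, went the other way, at 24.1 to 39.6 and 16.8 to 22.2 FPKM (-0.55, adjusted p = 0.267).

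The genes whose profile over the 6 libraries was nearest to that of Ptgs2, by the distance between centred log2(FPKM + 1) values among 8173 genes, were Pdk4 (distance 0.324), Usp17le (0.516), Stbd1 (0.580), Nudt13 (0.588) and Hist1h4i (0.607). Pdk4, a kinase that inhibits pyruvate dehydrogenase, measured 39.2, 16.8 and 23.8 FPKM in siNC and 43.1, 42.6 and 71.3 FPKM in siCNN3. Like Ptgs2, it was lowest in siNC replicate 2 and highest in siCNN3 replicate 3. With 6 libraries this likeness is a description, and Pdk4 itself did not pass the test (limma adjusted p = 0.210).

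Prostaglandin genes are used differently by other cell types, so markers were measured beside them. Of 16 muscle markers 13 were tested, and 4 fell in siCNN3 (limma): Acta1, Mylpf, Tnnt3 and Myl1, genes of the contractile apparatus, while 0 rose, compared with 0.336% and 1.73% of all genes. Acta1 went from 24.6 to 33.8 FPKM in siNC to 5.35 to 6.43 FPKM in siCNN3 (log2 fold change -2.12, adjusted p = 0.00473). Of this list, 1 gene was called lower without siNC replicate 3 or without siCNN3 replicate 2, and 2 without siCNN3 replicate 1, with siCNN3 replicates 1 and 2 averaged, with the replicate block or with the highest transcript. There were 3 called lower without siNC replicate 1, without siNC replicate 2 or with no filter, and 5 after quantile normalization. With each gene's own spread 0 were called. Without siCNN3 replicate 3 there were 4 lower and 1 higher, and without both siNC replicate 1 and siCNN3 replicate 3 there were 7 lower and 1 higher. Over all genes the calls rose too, from 39 lower and 200 higher with all libraries. They were 159 lower and 443 higher without siCNN3 replicate 3, and 299 and 576 without both. Myf5, a regulator of myoblasts, named after its values were seen, was the 1 tested muscle marker with a positive log2 fold change, at 3.55, 5.64 and 4.84 FPKM in siNC and 13.0, 11.4 and 5.40 FPKM in siCNN3 (0.88, limma adjusted p = 0.238). Tnni1, Mymk and Myog had the largest differences without overlap among the tested muscle markers not called, all lower in siCNN3. Tnni1 measured 6.41 to 7.28 FPKM in siNC and 0.878 to 4.18 FPKM in siCNN3 (log2 fold change -1.49, limma adjusted p = 0.107). Mymk measured 1.29 to 2.71 and 0 to 0.856 FPKM (-1.03, adjusted p = 0.150), and Myog 1.23 to 3.07 and 0.485 to 0.907 FPKM (-0.85, adjusted p = 0.159). The summed FPKM of the muscle list was 205.8 to 250.4 in siNC and 137.9 to 148.5 in siCNN3. Ckm, the creatine kinase of mature muscle, was listed at 0.414 to 0.911 FPKM in siNC and at 0 in 2 of 3 siCNN3 libraries, where a 0 can be a failed estimate. Acta1 and Mylpf (22.8 to 36.5 FPKM in siNC) were well above that level. Myf6 and Ryr1 were not analysed here. Of 13 macrophage and leukocyte markers 3 had a transcript (Cd68, Lyz2 and Cd14), with a sum of 20.1 to 27.1 FPKM in siNC and 16.3 to 19.2 FPKM in siCNN3. The defining markers Ptprc, Adgre1 and Csf1r had none. Of 6 endothelial markers 1 had a transcript (Tek), at 0.681 to 1.37 and 0.733 to 1.24 FPKM. Of 10 fibroblast and adipocyte markers 6 were tested, with a sum of 505.5 to 580.7 FPKM in siNC and 380.7 to 407.3 FPKM in siCNN3. Most of that sum was Col1a2, whose groups overlapped (293.9 to 383.4 and 290.7 to 309.7 FPKM, limma adjusted p = 0.472). Fabp4, a fatty acid carrier of adipocytes, fell (8.09 to 10.9 and 2.17 to 3.13 FPKM, log2 fold change -1.45, adjusted p = 0.0152), a call lost without siNC replicate 1 or 3 or siCNN3 replicate 1 or 2, with siCNN3 replicates 1 and 2 averaged, with the replicate block and with each gene's own spread. It was the 1 gene of its list called, compared with 0.336% of all genes called lower, and 2 were called lower without siCNN3 replicate 3, with or without siNC replicate 1. Under these settings 159 of all genes were called lower with siNC replicate 1 and 299 without it. Dcn, which encodes decorin, measured 117.6 to 183.3 and 51.6 to 92.4 FPKM (-1.21, adjusted p = 0.0751). Pparg, the adipocyte regulator, also named after its values were seen, overlapped, at 2.05 to 3.20 and 2.87 to 3.65 FPKM (0.21, adjusted p = 0.623). The sums of the muscle, the fibroblast and adipocyte, and the macrophage and leukocyte lists were each lower in all siCNN3 libraries, as were Ptges, Ptgis and Ptgr1. Their part in those values was not tested. All libraries were of the C2C12 myoblast line, so the markers are read here as genes of this line. In bulk RNA, fewer cells in a given state and less RNA per cell cannot be told apart.

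**Figure D4:**
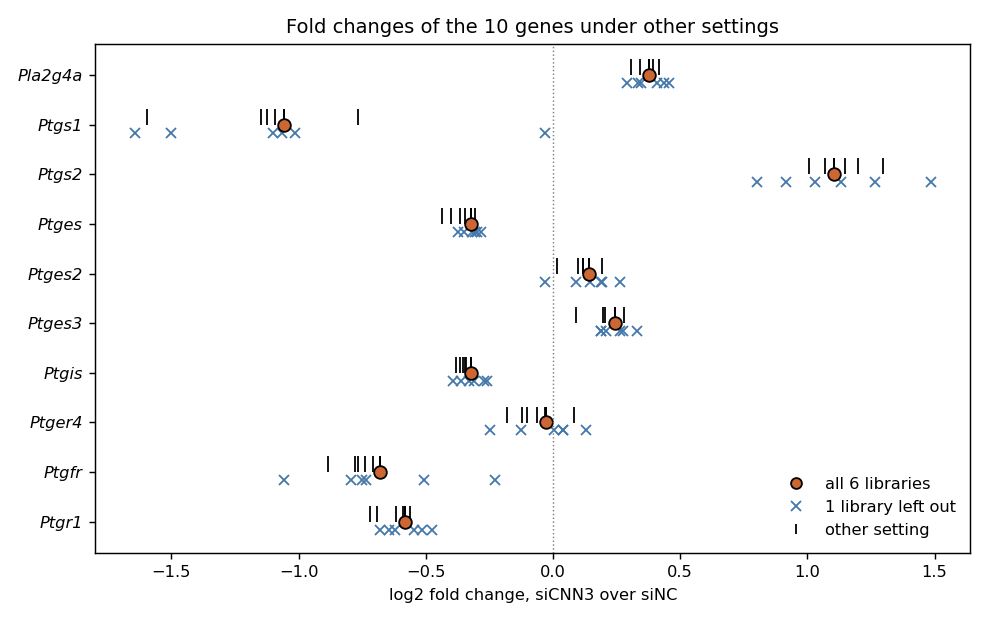
Log2 fold change, siCNN3 over siNC (horizontal axis), of each of the 10 genes with all 6 libraries (circles), with 1 library left out (crosses) and under the other settings (ticks). Ptgs1 moves to -0.03 and Ptgfr to -0.23 when 1 library is left out, Ptges2 and Ptger4 lie on both sides of 0, and Ptgs2 keeps values of 0.80 to 1.48.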

How the data were processed

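RNA of C2C12 cells transfected with NC siRNA (3 libraries) or CNN3 siRNA (3 libraries) was sequenced, and groups were taken from the labels. The authors deposited FPKM for 24023 transcripts. The submitters' processing notes name Bowtie 0.12.2 and the genome builds mm8 and mm10, without a role for each. The program and annotation behind the FPKM are not given in the sources used here. No read counts were used, so the depth and the counting error are unknown. Identifiers were matched without version to GENCODE transcripts of GRCm38 (23949 matched, 22790 with version), and the 74 unmatched (0.159% to 0.22% of the FPKM of a library) were left out. FPKM were summed per gene (11835 genes, 6066 with more than 1 transcript). Zeros may be failed estimates: within a group, 238 transcripts held both a 0 and a value of 10 FPKM or more.

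A mean of 0.5 FPKM or more was required (11593 genes), and log2(FPKM + 1) was fitted with limma 3.58.1 in R 4.3.3 (mean-variance trend, Benjamini-Hochberg adjustment over all genes, threshold 0.05). Fold changes are on this scale and understate the change of low genes. Single values were also compared with a two-sided exact permutation test. The 10 genes and the other lists were chosen with earlier results of these data known. Of the other lists, called genes and up to 3 others with groups that do not overlap and the largest differences were named, along with the 5 profiles nearest to Ptgs2 among genes averaging 5 FPKM or more. Alternatives were a pseudocount of 0.1, quantile normalization, median-of-ratios scaling, a filter at 5 FPKM or none, replicate number as a block, no trend, each gene's own spread, the highest transcript in place of the sum, and each library left out. Averaging siCNN3 replicates 1 and 2, and leaving out siNC replicate 1 with siCNN3 replicate 3, were added after the data were seen. Python 3.11.15 was used with matplotlib 3.10.9, scipy 1.17.1, pandas 2.3.3 and numpy 2.4.6, and R with data.table (1.17.8).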

Additional observations from a re-analysis of the deposited data

How the results depend on the processing

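Of the 10 genes, 1 passed in the direction of siNC after quantile normalization (Ptgr1) and 1 in that of siCNN3 with siNC replicate 1 and siCNN3 replicate 3 both left out (Ptgs2), where the rest of the pathway gave 1 higher (Pla2g16) and 1 lower (Pla2g15). Leaving out 1 library gave 0 of the 10 genes, and 0 to 1 of the rest of the pathway in each direction, the 1 without siCNN3 replicate 3. Under quantile normalization the groups did not overlap with siCNN3 higher in 0 of the 10 genes, compared with 3, while the 3 lower remained. Without 1 library Ptges2 ran from -0.030 (without siNC replicate 1) to 0.26, and Ptger4 from -0.25 to 0.13. Ptger4 was 0.083 with siCNN3 replicates 1 and 2 averaged, and the cause was not tested. The other 8 genes kept their direction under all alternatives. Ptges and Ptges2 have no value with the filter at 5 FPKM. Replicate numbers did not pair the libraries (correlations of same-numbered deviations -0.36, 0.35 and -0.04), and with the replicate block 0 of the 10 genes and 62 higher and 6 lower of all genes were called, compared with 200 and 39. Over all genes, leaving out 1 library gave 16 (without siNC replicate 3) to 443 (without siCNN3 replicate 3) higher and 4 to 159 lower. Quantile normalization gave 199 higher and 93 lower, median-of-ratios scaling 218 and 63, the highest transcript 100 and 22, averaging 35 and 5, leaving out both 576 and 299, and each gene's own spread 0 and 0. The depth is unknown, so counting error cannot be separated from the spread between libraries.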
